A study of Mus musculus with 24 samples.

Results

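The regions described here are stretches of C57BL/6J liver DNA with a peak of open chromatin in the list of mice kept on control diet. They held none in the lists of mice given high fat diet, either throughout (HF) or before a return to control diet (Reversal). They were chosen by joining the peaks of all 6 deposited lists on chromosomes 1 to 19 wherever peaks shared at least 1 bp, and by keeping joined regions with a C57BL/6J Control peak and no C57BL/6J HF or Reversal peak. Of 49364 joined regions 32705 held a C57BL/6J Control peak, and 4387 of these met the rule. The rule reads the 3 C57BL/6J lists, so presence, signal and rank in those lists are descriptions of how the regions were picked. They are called control-only regions below, which says that among the C57BL/6J groups they were listed in the Control group only. Reversal mice also ended on control diet. Whether the regions were closed in the HF and Reversal groups is not shown by these lists.

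Livers of 2 inbred mouse strains, C57BL/6J and A/J, were profiled. Control mice ate control diet for 16 weeks, HF mice ate high fat diet for 16 weeks, and Reversal mice had 8 weeks of high fat feeding before a final 8 weeks on control diet. For Reversal the tag in the labels states 16 weeks on control diet, against 8 in the treatment protocol, which was followed. Each strain and diet had 2 FAIRE libraries, 12 in all, and 1 deposited peak list. Whether both libraries of a group are from different animals is not stated in the labels, nor are sex and age. The label of liver was not checked against marker genes, since the peak lists carry no gene names.

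FAIRE-seq sequences DNA that escapes crosslinking to protein and stays in the aqueous phase when fixed chromatin is extracted with phenol. Such DNA is depleted of nucleosomes, and it marks active promoters, enhancers and insulators. In liver many such sites bind the hepatocyte factors HNF4A, FOXA and C/EBP and the nuclear receptors that respond to fatty acids, bile acids and glucocorticoids. C57BL/6J mice readily gain weight and liver fat on high fat diet, while A/J mice are known to be more resistant.

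The C57BL/6J Control list held 35465 peaks, the HF list 33371 and the Reversal list 32727, and the A/J lists held between 33963 and 36410. Each peak has a signal in the authors' lists whose scale is not given, so it is used here as a rank within its list, from the strongest peak near 0% to the weakest at 100%. The sole exceptions are a comparison of the lists' lowest signals and an alternative with a common lowest signal, which both take the lists to share a scale. No source used here gives the read depth. With 1 list per strain and diet no difference between lists has a replicate check, and none was tested. The 95% Wilson intervals on shares cover counting error only, and neighbouring regions are not independent. Positions are in mm9, counted from 1, and no genes are named at them, since gene positions of that build were not used here.

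In C57BL/6J liver the control-only regions were 13.4% of Control regions (95% Wilson interval 13.0 to 13.8), which is also the background share for this rule. The like class for HF held 1961 regions, 6.35% of HF regions, and that for Reversal 1676, 5.49% of Reversal regions. In A/J the 3 single-diet classes made up 6.50% of Control, 5.93% of HF and 4.34% of Reversal regions. The C57BL/6J control-only class was thus the largest of the 6 in these lists. With a common lowest signal of 0.125 in all 6 lists the class shrank to 1553 regions, 7.13% of Control regions. At the deposited thresholds its peaks covered 1.40 Mb, 7.22% of the 19.4 Mb under Control peaks on these chromosomes. Every control-only region had a single Control peak.

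Control-only regions were weak. Their Control signal ran from 0.0849 to 0.177 with a median of 0.0953, against a median of 0.202 in the other 28318 Control regions. The lowest signal was 0.0850 in the HF list and 0.0965 in the Reversal list, and 2355 of the 4387 regions had a Control signal below the latter. Their median rank was 87.6% (quartiles 78.9 and 94.2), and the strongest ranked at 47.5%. No such region lay in the strongest 40% of the list, and only 3 lay between 40% and 50%. From there the class took a growing share of the list, with 11.4% of Control regions ranked at 60 to 70%, 24.7% at 70 to 80%, 41.9% at 80 to 90% and 56.3% in the weakest 10% (54.6 to 58.1). That last bin alone held 1815 of them, 41.4% of the class.

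**Figure D1:**
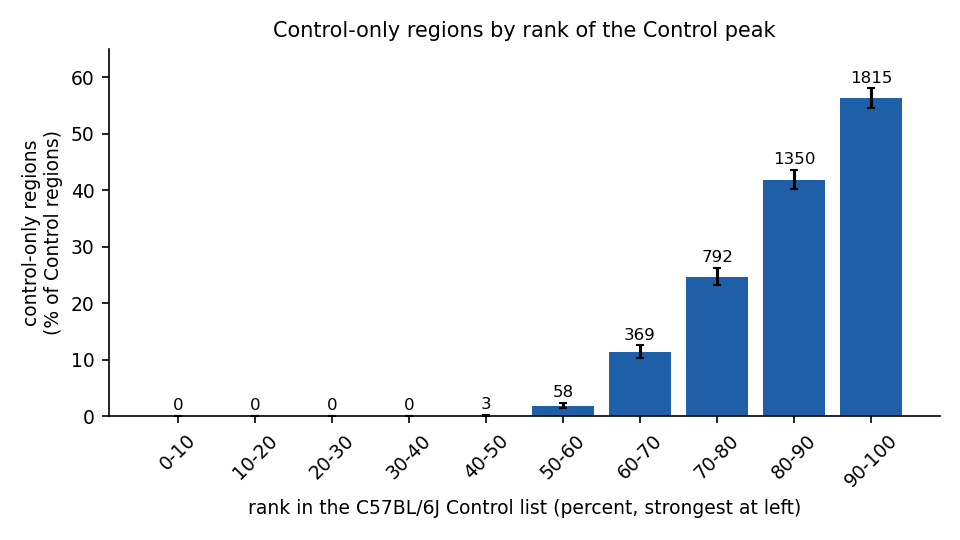
Share of C57BL/6J Control regions that were control-only (vertical axis, percent, with 95% Wilson intervals) in each 10% bin of the Control list by signal rank (horizontal axis), with the number of control-only regions over each bar. The bars stay at 0 up to a rank of 40% and reach 56.3% in the weakest bin.

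The strongest control-only region lay at chr5:62417061-62417357 with a Control signal of 0.177, and its nearest HF and Reversal peaks lay 124380 and 124370 bp away. It held an A/J peak on HF only, ranked at 77.5% of that list. The next lay at chr8:80111731-80112160, also at 0.177, with an HF peak 22074 bp and a Reversal peak 22054 bp away and with no peak in any A/J list. The following 3, at chr6:128640432-128640758 (0.169), chr1:85279778-85280394 (0.167) and chr1:7225206-7225546 (0.166), were likewise without an A/J peak. So 4 of the 5 strongest were listed nowhere but in C57BL/6J Control, as were 85.6% of all control-only regions.

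Control peaks of the class were narrow, with a median width of 275 bp (quartiles 245 and 327) against 464 bp in other Control regions. The gap was smaller at like rank: other Control regions weighted to the same 10% bins of rank had a median of 287 bp (244 and 384). Within each bin from 50% on, the control-only median was still the smaller, at 301 bp against 338.5 bp for ranks of 50 to 60% and at 265 bp against 274.5 bp in the weakest bin. Widths under 300 bp accounted for 1230 regions below 250 bp and 1660 from 250 to 300 bp. Only 36 reached 1000 bp. The widest were at chr2:179799474-179801930 (2457 bp), chr12:112512231-112514173 (1943 bp) and chr11:76435729-76437433 (1705 bp), all ranked beyond 90% of the Control list and none with an A/J peak. The summit, the position of highest signal, sat close to the middle, a median of 9 bp from the centre of the peak against 12.5 bp in other regions of the same ranks.

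Near the limit of the 1 bp rule, 127 control-only regions (2.89%) lay within 200 bp of an HF or Reversal peak. The control-only regions closest to being left out lay at chr10:116017626-116018301, 26 bp from a Reversal and 62 bp from an HF peak, and at chr5:130176266-130176576, 29 and 59 bp away. Their Control peaks ranked at 81.5% and 93.4%. On the other side, the smallest overlap that kept a Control region out of the class was 164 bp. It occurred at chr19:3063275-3063449, where a Control peak ranked at 96.7% covered an HF peak ranked at 97.8%, and at chr2:120236222-120236428, where a Control peak at 95.6% lay within a Reversal peak at 93.0%. No Control region was kept out by an overlap under 50 bp, and the median overlap was 438 bp. Among the joined regions kept out, 1 had no Control peak touching an HF or Reversal peak and was joined to one by further peaks. That count leaves out untouched Control peaks that A/J peaks joined to another Control peak touching an HF or Reversal peak. Such cases occurred, since merging the C57BL/6J lists alone gave a larger class of 4444 regions.

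Most control-only regions were also unlisted in A/J, a strain whose lists entered the rule only through the joining of peaks. With the C57BL/6J lists merged alone the class held 4444 regions, of which 15.5% had a peak in any A/J list. An A/J Control peak was present at 474 of 4387 (10.8%, 9.92 to 11.8), an A/J HF peak at 463 (10.6%, 9.68 to 11.5) and an A/J Reversal peak at 347 (7.91%, 7.15 to 8.75). Over all C57BL/6J Control regions the corresponding shares were 69.1%, 71.9% and 66.9%. Any A/J list held a peak at 633 control-only regions (14.4%, 13.4 to 15.5), against 74.0% of all Control regions, and all 3 A/J lists did so at 254 (5.79%), against 65.2%. The other 3754 (85.6%, 84.5 to 86.6) were listed in 1 of the 6 lists, and by the same count 815 regions were found in C57BL/6J HF alone, 553 in C57BL/6J Reversal alone and between 471 and 1841 in single A/J lists.

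The difference was also seen at like rank. Other Control regions in the same 10% bins of the Control list held an A/J peak in 65.4% of cases, a difference of -51.0 percentage points for control-only regions (-52.7 to -49.4). By the rule those other regions were listed again in C57BL/6J HF or Reversal, and control-only regions were not. The sets thus differ in repeat listing before A/J is read, and how much of the difference follows from this was not tested. For the single A/J lists the differences were -49.5 (Control), -48.6 (HF) and -48.0 points (Reversal). It was present in each bin from 50% on. In the weakest bin an A/J Control peak lay at 11.7% of control-only regions against 61.9% of the others, and at ranks of 60 to 70% at 7.32% against 59.2%. With a common lowest signal in all lists, A/J Control, HF, Reversal and any A/J peaks lay at 20.3%, 20.9%, 16.7% and 26.6% of the 1553 control-only regions left, and the rank-matched difference was -55.2 points. Whether reads of A/J mice map to mm9 as well as those of C57BL/6J was not tested.

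**Figure D2:**
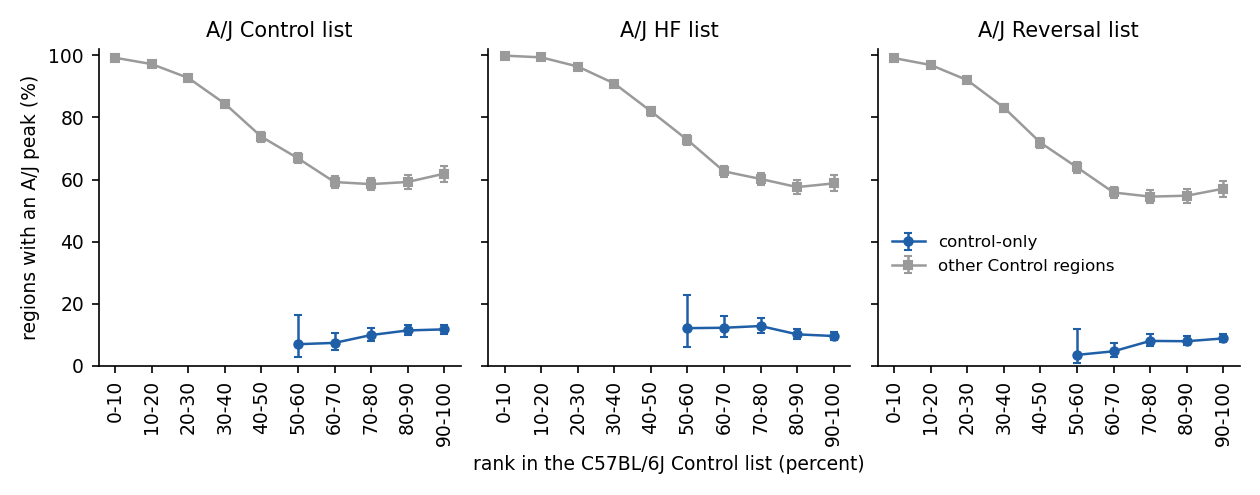
Share of C57BL/6J Control regions with a peak in the A/J Control, HF or Reversal list (vertical axes, percent, with 95% Wilson intervals) by 10% bin of the C57BL/6J Control list (horizontal axes, strongest at left), for control-only regions from a rank of 50% on (circles) and for other Control regions (squares). In the weakest bin of the A/J Control panel the points stand at 11.7% and 61.9%.

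By comparison with the other single-diet classes, low sharing with the other strain was not particular to control-only regions. Of C57BL/6J HF-only regions 58.4% held an A/J peak and of Reversal-only regions 67.0%. In A/J the Control-only and Reversal-only classes were shared with C57BL/6J in 19.6% and 12.1% of cases, while 75.4% of A/J HF-only regions were shared. Against regions of their own list at the same ranks, the differences were 0.20 points (-2.27 to 2.67) for C57BL/6J HF-only, 9.94 for C57BL/6J Reversal-only, -22.1 for A/J Control-only, 24.98 for A/J HF-only and -34.0 for A/J Reversal-only. The difference of -51.0 points for C57BL/6J control-only regions was the largest of the 6 in these lists. For each class the compared regions were, by definition, listed on a further diet of the same strain.

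**Figure D3:**
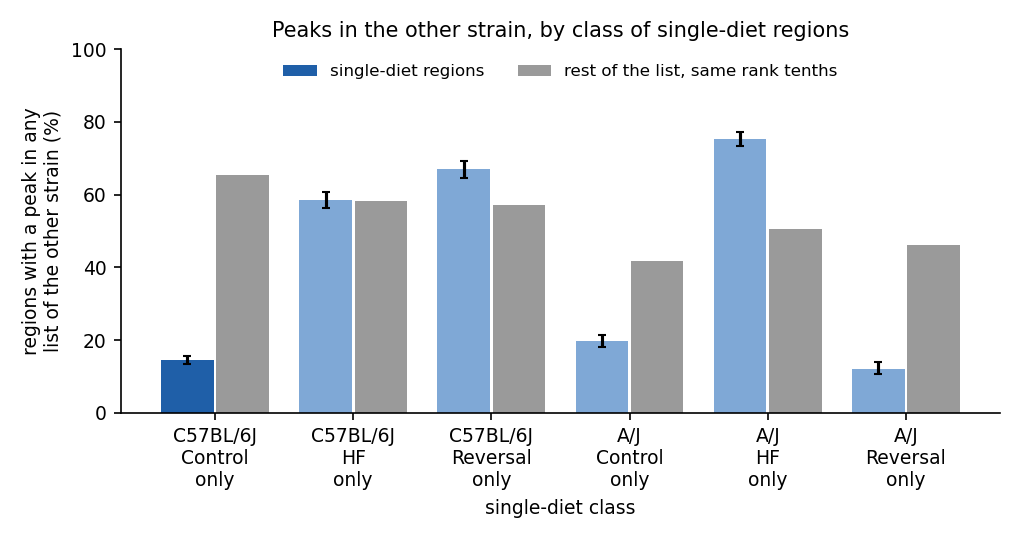
Share of regions with a peak in any list of the other strain (vertical axis, percent) for the 6 classes of regions listed on a single diet of their strain (blue, with 95% Wilson intervals) and for the rest of the same list weighted to the same 10% bins of rank (grey). C57BL/6J control-only regions stand at 14.4% beside 65.4%.

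Where A/J did hold a peak, it was at the same place and weak. The A/J Control summit lay a median of 14 bp from the C57BL/6J Control summit, against 13 bp for other Control regions of like rank. The A/J Control peaks had a median rank of 82.6% in their own list (quartiles 71.6 and 90.8), against 58.2% (42.8 and 74.7) for the A/J peaks of those other regions. Only 14 of the 474 ranked in the stronger 50% of the A/J Control list and none in the strongest 20%. In the A/J HF and Reversal lists the median ranks were 85.6% and 83.6%, against 65.2% and 59.5%. The exceptions, chosen after their values were seen, included chr2:153486342-153486909, ranked at 92.3% in C57BL/6J Control but at 30.0%, 35.5% and 30.3% in A/J Control, HF and Reversal, and chr4:10832222-10833052, at 96.2% in C57BL/6J Control and at 36.1%, 41.8% and 37.6% in A/J.

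Across A/J diets the 633 shared regions were spread over all patterns. Peaks on all 3 diets were the most frequent, with 254 regions (40.1% of the shared ones). Next came 127 with a peak on HF only, 87 on Control only, 72 on Control and HF, 61 on Control and Reversal, 22 on Reversal only and 10 on HF and Reversal. Among the strongest with all 3 was chr4:53282181-53282676, ranked at 56.3% in C57BL/6J Control and at 49.9%, 60.7% and 61.0% in A/J Control, HF and Reversal. A peak on A/J HF alone also outnumbered one on A/J Control alone among other Control regions, with 1238 against 209. Weighted to the same ranks these were 3.54% and 2.78% of the others, against 2.89% and 1.98% of control-only regions. Regions with A/J HF alone had the strongest Control peaks of any pattern, at a median rank of 79.5% against 88.8% for A/J Control alone. The strongest with the control-only pattern in both strains lay at chr11:43341952-43343012, ranked at 60.5% in C57BL/6J and 93.1% in A/J, and at chr17:23836324-23836638, at 61.8% and 98.3%.

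The control-only pattern occurred in both strains at those 87 regions. They were 18.4% (15.1 to 22.1) of the 474 with an A/J Control peak, whereas 1.31% of all C57BL/6J Control regions with an A/J Control peak lacked peaks on both other A/J diets. Other Control regions at the same ranks of the A/J Control list gave 7.44%, a difference of 10.9 points (7.56 to 14.3). These others were not matched on C57BL/6J Control rank, and by the rule they were listed again in C57BL/6J HF or Reversal. How much of the difference follows from this was not tested. In the weakest 10% of the A/J Control list it was 53 of 130 control-only regions (40.8%) against 121 of 683 others (17.7%). Whatever the A/J Reversal list held, an A/J HF peak was absent at 31.2% of the 474 against 13.3% at like rank. Whatever the A/J HF list held, an A/J Reversal peak was absent at 33.5% against 26.4%. Both shares include the 87. The groups share their lists, and these differences have no replicate check.

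Control-only regions stood far from other peaks. The median distance to the nearest other Control region was 25403 bp (quartiles 5998 and 75228), against 7854 bp (1879 and 25537) for other Control regions of the same ranks. To the nearest region listed on all 3 C57BL/6J diets it was 39368 bp. Regions listed on all 3 diets, weighted to the same ranks, lay 8103 bp from one another by the same measure. A Control region within 10 kb was found for 32.7% of control-only and 55.1% of rank-matched regions, a difference of -22.5 points (-24.4 to -20.5). HF-only and Reversal-only regions of C57BL/6J lay a median of 6669 and 6072 bp from the next region of their own list, and A/J HF-only regions, at 26130 bp, were the only other class with distances of this size.

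**Figure D4:**
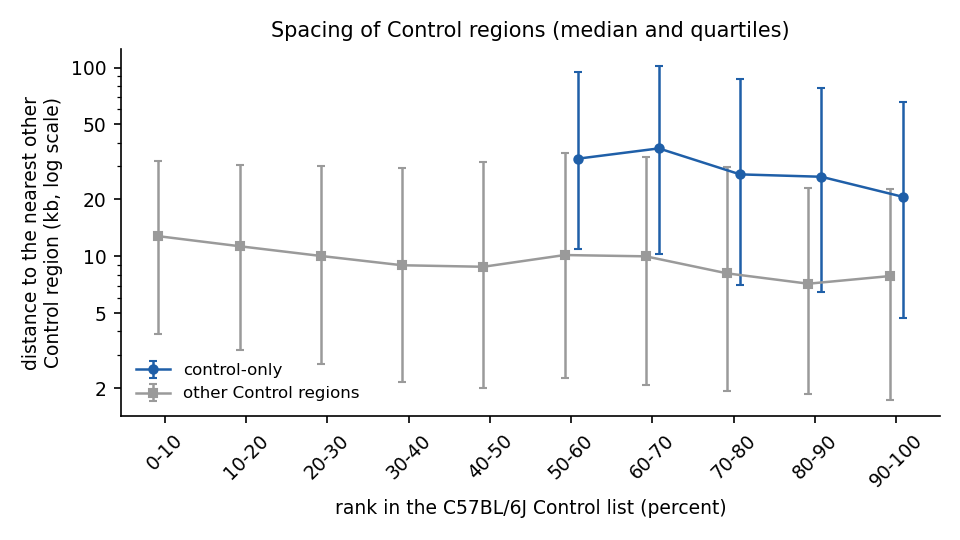
Distance from each C57BL/6J Control region to the nearest other Control region (vertical axis, kb, log scale; points are medians and bars quartiles) by 10% bin of the Control list (horizontal axis), for control-only regions from a rank of 50% on and for other Control regions. In the weakest bin the medians are 20682 and 7854 bp, and the quartile ranges overlap in every bin.

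How often a peak of another diet lay close by depended on the peak edges used. An HF or Reversal peak lay within 1 kb of 398 control-only regions (9.07%, 8.26 to 9.96), and a C57BL/6J peak of another diet lay within 1 kb of 20.1% of HF-only and 18.9% of Reversal-only regions. With 200 bp around each summit in place of whole peaks the control-only share was 19.5%, and with a common lowest signal it was 5.86%. With peaks up to 500 bp apart joined it was 2.96%, since closer peaks are then a single region. The other classes were not recomputed in these ways. Taken singly, the median distance was 31961 bp to the nearest HF peak and 34033 bp to the nearest Reversal peak. For 21.9% of control-only regions (20.7 to 23.1) the nearest Control region was itself control-only, against 10.9% of rank-matched others. The others were not matched for local density, with which the control-only share varied as given below, so a tendency to neighbour each other is not shown.

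The density of control-only regions varied less between chromosomes than that of Control regions as a whole. Control-only regions per Mb lay between 1.497 on chromosome 2 and 2.12 on chromosome 17, while Control regions per Mb ran from 9.74 on chromosome 14 to 21.3 on chromosome 11. The class therefore made up 17.1% of Control regions on chromosome 14 (15.1 to 19.3) and 9.08% on chromosome 11 (8.04 to 10.2), the highest and lowest of the 19 autosomes. In windows of 1 Mb with 1 to 4 Control regions 33.6% were control-only (31.3 to 36.1), and in windows with 40 or more 6.60% were (6.08 to 7.17). Sharing with A/J was 3.12% of control-only regions in the sparsest windows and 33.0% in the densest, and other Control regions went the same way, with 52.5% and 91.6%. At least 1 control-only region lay in 1938 of 2401 windows with a Control region. The highest number was 12, on chromosome 1 from 85000001 to 86000000 among 62 Control regions and from 90000001 to 91000000 among 35.

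The C57BL/6J Control list also stood apart in its numbering. Every peak carries its chromosome and a serial number, and the serial numbers increased with position without exception in all 6 lists. No source used here says what the serial numbers stand for. They are taken here as numbers given to all peaks of a group before weaker ones were left out, which is an assumption. They ran to a total of 244259 in C57BL/6J Control, of which 14.5% were listed. In the other 5 lists they ran to between 116089 and 176298, of which 18.6% to 30.4% were listed. The list with the most numbered peaks was thus also the one with the largest single-diet class, and with 1 list per diet the diet and the list cannot be told apart. The order did not hold across the other 5 lists. C57BL/6J Reversal had 176298 numbered peaks and a class of 5.49%, and A/J Control had 137787 and 6.50%. A/J Reversal was lowest in both, with 116089 and 4.34%.

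Serial numbers were also read around control-only regions in the other lists. On that reading a jump between neighbouring listed peaks counts peaks that were numbered and not listed, without giving their place in the gap. In the HF list 4372 control-only regions fell into 3421 such gaps, and 3420 of these gaps held at least as many unlisted peaks as control-only regions. In the Reversal list it was 3380 of 3380 gaps, with 4369 regions. The same 3420 and 3380 gaps are those with at least 1 unlisted peak, the measure compared next. Gaps without a control-only region, weighted to the same lengths, held an unlisted peak in 92.6% of cases in HF and 93.7% in Reversal. Of the 3421 HF gaps 2019 were 100 kb or longer, with a median of 10 unlisted peaks. All 2019 held an unlisted peak, against 98.1% of gaps of like length. The difference was clearest in gaps under 5 kb, where an unlisted peak lay in 94 of 95 gaps with a control-only region in HF (98.9%, 94.3 to 99.8) against 61.0% of gaps of like length, and in 94 of 94 in Reversal (100%, 96.1 to 100) against 62.7%.

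On the same assumption the numbering left room for an unlisted HF and Reversal peak in the gap around nearly every control-only region, and whether one lay at the region itself was not tested. The same held within the strain for the other single-diet classes, with between 99.6% and 100% of gaps. It was less complete across strains: for control-only regions unlisted in A/J, gaps with an unlisted peak made up 94.9% in A/J Control, 98.3% in A/J HF and 93.3% in A/J Reversal, against 87.2%, 90.8% and 84.5% at like length.

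**Figure D5:**
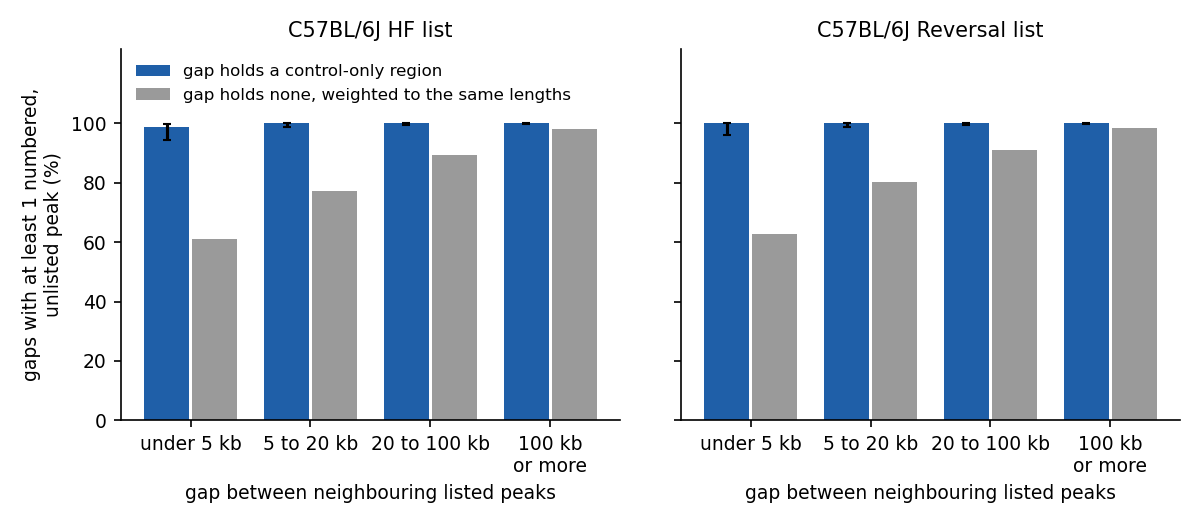
Share of gaps between neighbouring listed peaks that held at least 1 numbered but unlisted peak, with serial numbers taken as given before weaker peaks were left out (vertical axis, percent), by gap length (horizontal axis), in the C57BL/6J HF and Reversal lists, for gaps with a control-only region (blue, with 95% Wilson intervals) and gaps with none weighted to the same lengths (grey). Under 5 kb the HF bars stand at 98.9% and 61.0%.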

How the data were processed

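FAIRE-seq peak lists of 6 groups (2 strains and 3 diets, 12 libraries) were used. Each list holds position, name, signal and summit. The signal is the authors' deposited value, of unstated scale. It served to rank peaks within a list and, on the assumption of a shared scale, to compare lowest signals and to apply a common lowest signal as an alternative. Bowtie2, TopHat, DESeq2 and the build mm9 are named, without version or role, per the submitters' processing notes. Peak caller, threshold, depth and any pooling of libraries are not given in the sources used here. Strain and diet of a list come from its name. The expression tables were not used here.

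Peaks were joined with Python 3.11.15 and pandas 2.3.3 where they shared 1 bp. Rank-matched values weight other regions to the ranks of the control-only regions in 10% bins of the list, and length-matched gaps use steps of 0.1 in log10 of the length. Wilson intervals were computed with scipy 1.17.1. Joining, matching, distances and gap counts were checked on simulated lists. Named regions were the 5 strongest, the 2 strongest of each A/J pattern, the 3 widest, 2 just inside and 2 just outside the rule and the fullest 1 Mb window, of which some are given. The members and lists were chosen with earlier results of these data known.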

Additional observations from a re-analysis of the deposited data

Results flagged for a closer look

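The rule covers chromosomes 1 to 19, so the sex chromosomes were outside the comparisons. By the same definition 265 of 1331 C57BL/6J Control regions on chromosome X were control-only, a share of 19.9% (95% Wilson interval 17.9 to 22.1), and 17 of them held an A/J peak. On chromosome Y it was 27 of 142 (19.01%, 13.4 to 26.3), and 0 of these held an A/J peak. The A/J share over all Control regions of X or Y was not computed, so low sharing there is not shown to be particular to the class. Of 36410 A/J Control peaks 35811 lay on chromosomes 1 to 19, and of 35465 C57BL/6J Control peaks 33948 did. On X the C57BL/6J HF and Reversal lists held 1099 and 916 regions, and on Y 119 and 89. On chromosomes 1 to 19 the share was 13.4% (13.0 to 13.8). The definition itself reads these lists, so the shares are descriptions.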

How the results depend on the processing

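The 11 main results were recomputed under 8 alternatives, and none reversed the direction of the rank-matched difference in A/J sharing, which stayed between -55.2 and -49.3 points. The other single-diet classes, spacing between Control regions, chromosome and window shares, A/J ranks and serial numbers were not recomputed.

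Keeping only peaks at or above a common signal of 0.125 left 1553 control-only regions, 7.13% of Control regions, with a median rank of 60.1% and width of 311 bp. A/J Control, HF, Reversal and any A/J peaks were then at 20.3%, 20.9%, 16.7% and 26.6%, the matched difference was -55.2 points, the control-only pattern in A/J was at 13.0% and an HF or Reversal peak within 1 kb at 5.86%. With 32727 peaks per list the values were 10.1% of Control regions, rank 82.1%, width 279 bp, 7.34% with A/J Control, 9.50% with A/J HF, 5.77% with A/J Reversal, 11.8% with any A/J peak and 7.96% within 1 kb. The strongest 80% of each list gave 12.5% of Control regions, rank 70.5%, width 296 bp, a matched difference of -53.4 points and 7.47% within 1 kb. All these ranks are those of the full deposited list. Leaving out weak peaks therefore moves the median rank toward the strong end by itself, and it does not show the class to be mid-ranked among the peaks kept.

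With 200 bp around each summit the class was 14.9% of Control regions, with rank 86.2%, width 282 bp, a difference of -49.3 points and 19.5% within 1 kb. Merging the C57BL/6J lists only gave 11.8% with A/J Control, 15.5% with any A/J peak and 10.1% within 1 kb, and merging peaks up to 500 bp apart gave 2.96% within 1 kb, since closer peaks are then joined. The cause of the other changes, apart from the shift in rank where weak peaks were left out, was not tested. The remaining 55 of 88 values stayed within the interval of the reported value or, for the number of regions, within 1.5 times. No paired analysis was possible because each strain and diet has 1 peak list, and leaving out a library was not possible for the same reason. Without depth, a region outside a list cannot be called closed.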

Other observations

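Sharing of control-only regions with A/J by width was set beside that of other Control regions of the same width, weighted to the same ranks. An A/J peak was present at 20.2% of the 1230 control-only regions under 250 bp, against 73.8% of the others, at 8.19% of the 1660 from 250 to 300 bp, against 57.3%, and at 14.2% of the 1114 from 300 to 500 bp, against 63.1%. From 500 to 1000 bp it was 22.5% of 347 against 68.5%, and 36.1% of the 36 wider ones against 67.2%. In both sets the share was lowest from 250 to 300 bp. By spacing, 23.6% of control-only regions within 10 kb of another Control region held an A/J peak, against 9.99% of those farther away, and the same shares of other Control regions were 87.9% and 78.4%.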
